A study of Mus musculus with 18 samples.

Results

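The 10 genes described here encode proteins of the muscle Z-disc, LIM domain proteins and the ankyrin repeat proteins that respond to stretch: Actn2, Actn3, Myoz1, Myoz2, Myot, Fhl1, Fhl2, Csrp3, Ankrd1 and Ankrd2. They were chosen by symbol, as the probe sets whose single gene symbol is one of these names, which gave 1 probe set for each gene, or 10 of the 35382 probe sets of the table. A single symbol was annotated for 21153 probe sets in all. The mice carried TN-XXL, a fluorescent calcium sensor built around a part of troponin C, or were their wild type littermates, and all were of the C57BL/6 strain. Sample titles mark the transgenic samples "+/+", and the labels do not say what the mark stands for. The groups were transgenic skeletal muscle, wild type skeletal muscle, transgenic heart muscle, wild type heart muscle, transgenic hippocampus and wild type hippocampus, with 3 arrays in each of the 6 groups. The promoter that drives the transgene, the ages of the mice and the muscle that was sampled are not stated in the labels, and the transgene's own transcript was not analysed here.

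The Z-disc is the boundary between neighbouring sarcomeres, where alpha-actinin crosslinks the ends of the thin filaments and where the tension of contraction passes from one sarcomere to the next. Many of its partner proteins also leave the Z-disc for the nucleus or bind signalling enzymes such as calcineurin, so the structure is known both as an anchor and as a sensor of load. LIM domain proteins of the FHL and CSRP families and the muscle ankyrin repeat proteins are textbook examples, and several of them come as related pairs of which one is known mainly from heart and the other from skeletal muscle.

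Of these genes, Fhl2 was the one that differed between genotypes past the threshold. It was 3.68-fold higher in transgenic than in wild type skeletal muscle, with a difference of 1.88 ± 0.11 on the log2 scale (SE, n = 3 arrays in each group, limma adjusted p = 1.30e-07). The call count in skeletal muscle was therefore 1 of 10 genes, in the higher direction, beside 8.15% of all probe sets in either direction, 3.86% higher and 4.3% lower. In heart 0 of 10 passed, beside 3.19% of all probe sets, 1.57% higher and 1.62% lower. In hippocampus 0 of 10 passed, beside 0% of all probe sets. At an unadjusted limma p under 0.05 the genes numbered 2 in skeletal muscle, 2 in heart and 0 in hippocampus, where all probe sets under that p numbered 6751, 5320 and 1784 in the same order of tissues. The median difference of the 10 genes was 0.19 in skeletal muscle, 0.01 in heart and 0.05 in hippocampus, beside medians of 0.02, 0.00 and −0.01 over all probe sets. Fewer cells of a type and less RNA per cell cannot be told apart in such tissue samples.

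The values are log2 RMA values, so a difference of 1 is a doubling, and "passed" means an adjusted p under 0.05, with the Benjamini-Hochberg adjustment taken over the whole table. The labels number the arrays in a group without naming animals, so the p-values measure the spread between these arrays, which may be technical. Within groups, arrays correlated at 0.982 to 0.993. Array medians were 2.44 to 2.49 in skeletal muscle, 2.61 to 2.63 in heart and 3.68 to 3.71 in hippocampus. The tissue labels matched their markers: 8 fast muscle markers averaged 11.30 to 11.31 in transgenic and 11.23 to 11.34 in wild type skeletal muscle, 7 measured heart markers averaged 10.29 to 10.79 in transgenic and 10.13 to 10.54 in wild type heart, and 7 neuron markers averaged 9.96 to 10.02 in transgenic and 9.93 to 10.04 in wild type hippocampus. The table holds no detection calls, so a gene near its array's median is described as low and its fold changes are those of the deposited values.

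**Figure D1:**
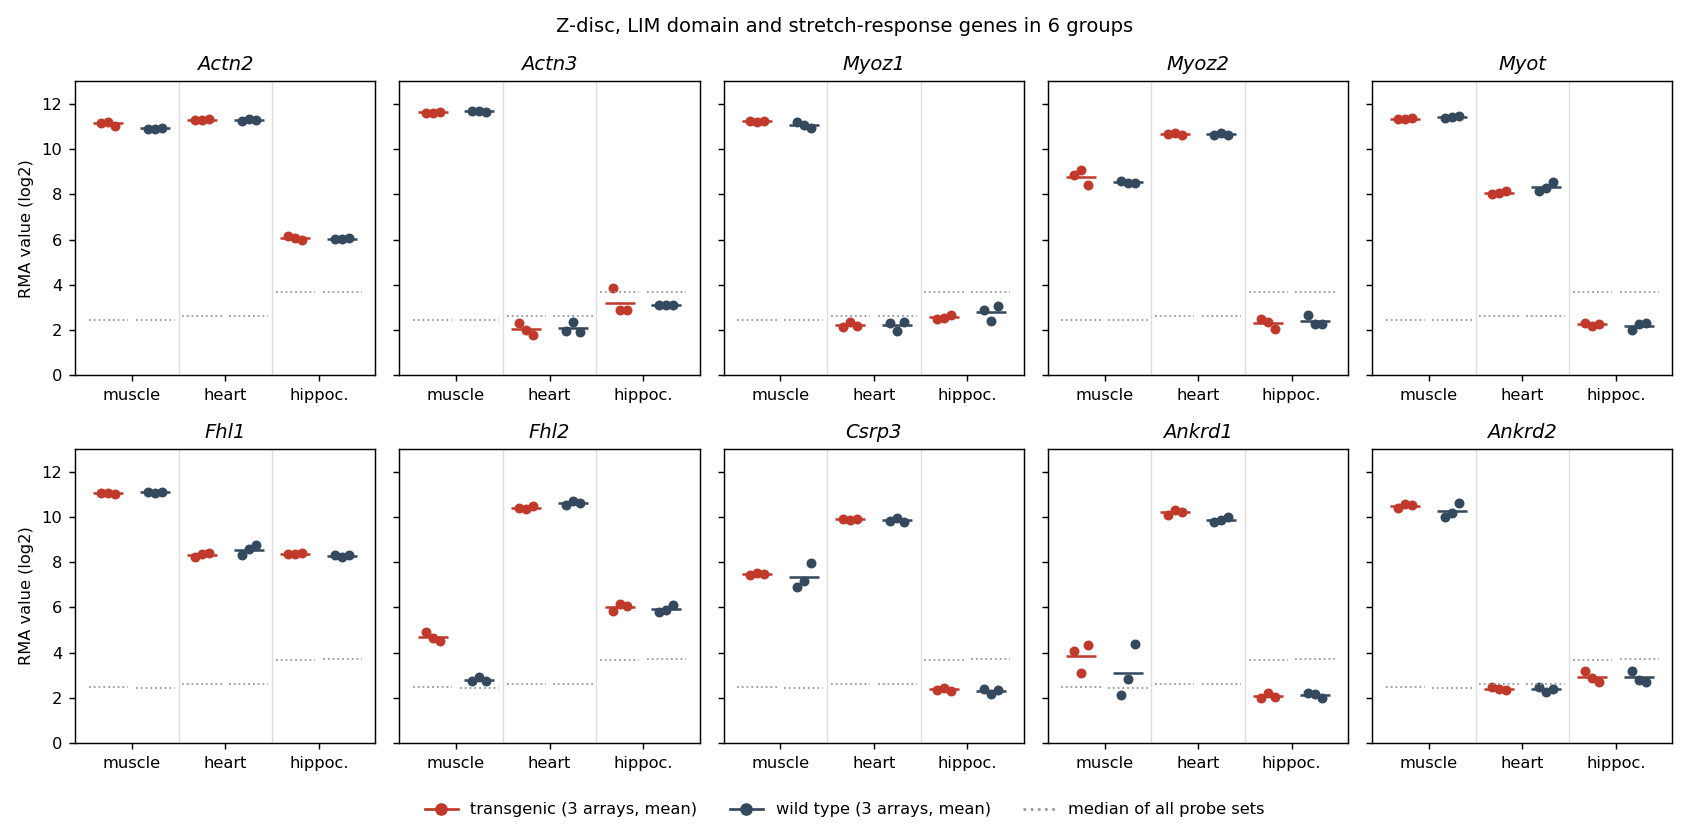
Log2 RMA values (vertical axis) of the 10 genes in skeletal muscle, heart and hippocampus, with 1 point for each array, a bar for the group mean of 3 arrays and a dotted line at the mean of the groups' array medians. Fhl2 in skeletal muscle is the clearest separation of transgenic from wild type points, while the tissues lie far apart for most genes.

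Actn2 encodes the alpha-actinin shared by heart and all skeletal fibres, the main crosslinker of thin filaments at the Z-disc (chr13:12269426-12340732 in GRCm38.p6, RefSeq). In skeletal muscle it stood at 11.15, 11.21 and 11.02 in transgenic arrays, against 10.88, 10.90 and 10.94 in wild type arrays. All transgenic arrays lay above all wild type arrays, yet the difference was small, 0.22 ± 0.07, and missed the threshold (adjusted p = 0.0669). It passed without transgenic array 3, the lowest of its group (0.28, adjusted p = 0.0395). It also passed when the dimmer probe sets were left out (adjusted p = 0.0251) and with an intensity trend and robust prior (adjusted p = 0.0151). Other settings moved it further from the threshold. Over the alternatives other than leaving out arrays, the difference ran from 0.15 to 0.22 (adjusted p = 0.0151 to 0.313). With single arrays left out, it ran from 0.18 to 0.28 (adjusted p = 0.0395 to 0.218). In heart Actn2 stood at 11.29, 11.30 and 11.31 in transgenic and 11.23, 11.31 and 11.28 in wild type arrays, values that overlapped. In hippocampus its 6 arrays lay between 5.96 and 6.17, above the array medians, and did not separate by genotype.

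Actn3 encodes the alpha-actinin of fast glycolytic fibres, the form missing in people with a common null allele of the gene (chr19:4861216-4877909). It stood at 11.60, 11.61 and 11.64 in transgenic and 11.69, 11.67 and 11.62 in wild type skeletal muscle. The groups overlapped, and the difference was −0.04 ± 0.21 (adjusted p = 0.952). The heart arrays were low, at 2.31, 2.01 and 1.80 in transgenic and 1.94, 2.38 and 1.92 in wild type, all below their array medians. In hippocampus 1 transgenic array reached 3.86 and the other two were at 2.87 and 2.90, against 3.10, 3.12 and 3.12 in wild type.

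The myozenins, also called calsarcins, tie alpha-actinin to the phosphatase calcineurin. Myoz1 is the form of fast fibres (chr14:20649102-20656540). It stood at 11.23, 11.20 and 11.23 in transgenic skeletal muscle, against 11.18, 11.06 and 10.93 in wild type skeletal muscle. The groups did not overlap, but the difference of 0.16 ± 0.15 was close to its SE and did not pass (adjusted p = 0.646). That SE is shared with the other tissues, where Myoz1 was low. The SD was 0.02 in transgenic and 0.13 in wild type muscle, against 0.23 in wild type heart and 0.35 in wild type hippocampus. In heart Myoz1 was low, at 2.12, 2.35 and 2.19 in transgenic and 2.31, 1.95 and 2.36 in wild type, and its hippocampal arrays ranged from 2.39 to 3.06.

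Myoz2 is the form of heart and slow fibres (chr3:123006206-123035003). In skeletal muscle it stood at 8.84, 9.08 and 8.40 in transgenic and 8.56, 8.49 and 8.50 in wild type arrays. Transgenic array 3 lay below every wild type array and the other transgenic arrays above them, so the groups overlapped, and the difference was 0.25 ± 0.15 (adjusted p = 0.421). Without that array the difference was 0.44 (adjusted p = 0.0763). The mean of 7 slow fibre markers ran the same way over these arrays, at 8.39, 8.60 and 7.66 in transgenic and 8.25, 8.09 and 8.26 in wild type muscle, and its part in the Myoz2 values was not tested. In heart Myoz2 was at 10.66, 10.69 and 10.60 in transgenic and 10.60, 10.72 and 10.60 in wild type arrays, which overlapped.

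Myot encodes myotilin, a Z-disc protein that binds alpha-actinin and filamin C and bundles actin. Its skeletal muscle values were 11.32, 11.33 and 11.35 in transgenic and 11.36, 11.40 and 11.46 in wild type arrays. In heart they were 8.00, 8.04 and 8.15 in transgenic and 8.16, 8.29 and 8.53 in wild type arrays. Transgenic arrays lay below wild type arrays in both tissues without overlap, but neither difference passed: −0.07 ± 0.10 in skeletal muscle (adjusted p = 0.789) and −0.26 ± 0.10 in heart (adjusted p = 0.199, unadjusted p = 0.0182).

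Fhl2 encodes a LIM-only protein known as a coactivator and as a partner of the titin N2B region in heart, where it is the abundant FHL protein (chr1:43123071-43198343). In skeletal muscle it stood at 4.91, 4.63 and 4.53 in transgenic arrays, against 2.76, 2.91 and 2.76 in wild type arrays. Every transgenic array lay far above every wild type array. Within its array, Fhl2 lay between the 72.8 and 76.2 percentiles of all probe sets in transgenic muscle and between the 55.4 and 57.8 percentiles in wild type muscle, so it was low in wild type muscle and of middle level in transgenic muscle. The 95% interval of the difference was 1.64 to 2.12, and an exact permutation test over the 6 arrays gave p = 0.1, two-sided, the smallest that 3 arrays against 3 allow. Over the alternatives the difference was 1.86 to 1.88 with adjusted p of 3.28e-08 to 0.00340, and 1.77 to 1.96 when any 1 array was left out.

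In heart Fhl2 stood at 10.40, 10.33 and 10.46 in transgenic and 10.51, 10.72 and 10.60 in wild type arrays. The transgenic arrays were all lower, but the difference of −0.21 ± 0.11 did not pass (adjusted p = 0.428). The genotype difference in heart minus that in skeletal muscle was −2.09 ± 0.16 (adjusted p = 1.01e-05), the 1 call among the 10 genes for this interaction, beside 2.55% of all probe sets. In hippocampus Fhl2 was at 5.83, 6.17 and 6.07 in transgenic and 5.82, 5.89 and 6.09 in wild type arrays, which overlapped. Averaged over skeletal muscle and heart, Fhl2 was higher by 0.84 ± 0.08 (adjusted p = 1.15e-05) and was the 1 of 10 genes that passed, beside 8.86% of all probe sets.

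Wild type heart held far more Fhl2 than wild type skeletal muscle, by 7.80 on the log2 scale, so heart muscle markers are given beside the skeletal muscle result. Of 8 such markers 7 were measured, and 5 of these 7 lay below the array median in both genotypes. Their mean was 2.54 to 2.70 in transgenic and 2.55 to 2.65 in wild type skeletal muscle, and 0 of 7 passed or had an unadjusted limma p under 0.05. Of 6 markers of atrial muscle, some of which skeletal muscle also expresses, 2 passed in the higher direction, Sln and Kcnj3, and the mean was 3.20 to 3.30 in transgenic and 2.81 to 2.87 in wild type skeletal muscle. Endothelial markers ran lower, with a mean of 6.11 to 6.48 in transgenic and 6.69 to 6.85 in wild type skeletal muscle and 3 of 5 passing (Tek, Emcn and Cldn5). Of 7 slow fibre markers 1 passed, Myl2, which was higher (0.57, adjusted p = 0.0447), while Myl3 at −0.51 and Atp2a2 at −0.52 had an unadjusted limma p under 0.05 without passing. The slow fibre mean was 7.66 to 8.60 in transgenic and 8.09 to 8.26 in wild type muscle. Of 3 measured adipocyte markers 1 passed, Adipoq, which was higher, with means of 5.76 to 6.22 in transgenic and 4.97 to 5.77 in wild type muscle. Of 4 smooth muscle and 5 fibroblast markers 0 passed by limma, and 1 of the fibroblast markers had an unadjusted p under 0.05. The part of the atrial, endothelial, slow fibre and adipocyte markers in the Fhl2 result was not tested.

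The windows used here cover 2 RefSeq starts of Fhl2, and the 250 bases before each are shown because Fhl2 carries the genotype result (GRCm38.p6, minus strand, chr1:43196762-43197011 for start 1 and chr1:43163962-43164211 for start 2). Both lie inside the gene span given above, and the bases before the upstream end of that span were not examined. Windows of Fhl1, Myoz2 and Ankrd1 are shown beside the Fhl2 windows because, of the windows examined, they are the other ones that hold a match to a motif marked here (chrX:56779433-56779682, plus strand; chr3:123034988-123035237, minus strand; chr19:36119845-36120094, minus strand). Capitals mark matches, on either strand, to the CArG box bound by serum response factor, to the MEF2 site, and to the MCAT element CATTCC bound by TEAD factors.
Fhl2 start 1: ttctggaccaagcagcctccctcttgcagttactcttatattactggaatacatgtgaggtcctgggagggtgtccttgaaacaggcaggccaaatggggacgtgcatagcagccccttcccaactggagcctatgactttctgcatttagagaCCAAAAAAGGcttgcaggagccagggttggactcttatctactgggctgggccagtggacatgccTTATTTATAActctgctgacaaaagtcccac
Fhl2 start 2: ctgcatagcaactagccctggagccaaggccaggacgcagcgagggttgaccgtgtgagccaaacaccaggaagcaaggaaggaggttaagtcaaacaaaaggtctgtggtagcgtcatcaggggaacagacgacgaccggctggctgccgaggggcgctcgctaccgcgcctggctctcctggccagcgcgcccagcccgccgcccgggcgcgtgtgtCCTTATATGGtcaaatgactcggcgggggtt
Fhl1 start 1: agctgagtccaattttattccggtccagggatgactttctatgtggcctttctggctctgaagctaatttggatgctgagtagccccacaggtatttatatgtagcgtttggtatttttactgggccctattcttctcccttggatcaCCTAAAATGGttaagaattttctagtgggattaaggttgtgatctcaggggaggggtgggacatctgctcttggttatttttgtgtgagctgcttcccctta
Myoz2: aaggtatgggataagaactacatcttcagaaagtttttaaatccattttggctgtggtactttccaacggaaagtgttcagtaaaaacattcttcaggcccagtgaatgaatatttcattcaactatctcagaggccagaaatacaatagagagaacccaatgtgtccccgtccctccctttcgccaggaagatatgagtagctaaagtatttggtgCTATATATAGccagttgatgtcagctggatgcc
Ankrd1: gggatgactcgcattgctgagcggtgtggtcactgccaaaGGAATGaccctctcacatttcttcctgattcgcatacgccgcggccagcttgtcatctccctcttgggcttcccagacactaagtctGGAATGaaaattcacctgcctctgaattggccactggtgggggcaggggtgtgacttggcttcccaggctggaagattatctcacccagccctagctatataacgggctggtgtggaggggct

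Promoter windows were examined for 7 of the 10 genes, 10 windows in all. Those of Actn3, Myoz1 and Myot were not examined. A CArG box lay in both Fhl2 windows, 96 bases before start 1 and 31 bases before start 2, and in the Fhl1 window shown, 102 bases before its start. Of all 32817 windows in the RefSeq table, 1.47% hold such a match. A MEF2 match lay in the first Fhl2 window, 31 bases before the start, and in the Myoz2 window, 33 bases before it, and 2.92% of all windows hold one. CATTCC lay at 210 and 123 bases before the start in the Ankrd1 window, and 12.6% of all windows hold it. The E-box CANNTG was in all 10 windows (66.2% of all windows), and its special case CACGTG was in the Actn2 window among these 10 (6.02% of all windows). A match describes the letters only.

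Fhl1, the skeletal muscle relative of Fhl2 and a gene mutated in human X-linked myopathies, showed the opposite tissue pattern (chrX:56731209-56793346). It stood at 11.07, 11.07 and 11.03 in transgenic and 11.08, 11.07 and 11.10 in wild type skeletal muscle, with no separation. In heart it was at 8.24, 8.37 and 8.39 in transgenic and 8.33, 8.56 and 8.78 in wild type arrays. The heart groups overlapped through wild type array 1, and the difference of −0.22 ± 0.09 did not pass (adjusted p = 0.239), whereas without that array it was −0.34 (adjusted p = 0.0490). Leaving out any 1 array gave −0.34 to −0.11 (adjusted p = 0.0490 to 0.591). In hippocampus the transgenic arrays, at 8.38, 8.34 and 8.40, lay just above the wild type arrays at 8.31, 8.24 and 8.31, with a difference of 0.09 ± 0.09 (adjusted p = 1.00).

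Csrp3 encodes muscle LIM protein, a Z-disc protein whose loss causes dilated cardiomyopathy in mice (chr7:48830398-48848051). Its skeletal muscle values were 7.44, 7.53 and 7.46 in transgenic and 6.91, 7.16 and 7.98 in wild type arrays. Wild type array 3 was the highest of all 6 and the other two were the lowest, so the groups overlapped, with a difference of 0.13 ± 0.18 (adjusted p = 0.796). In heart Csrp3 was at 9.89, 9.86 and 9.90 in transgenic and 9.81, 9.96 and 9.76 in wild type arrays, which overlapped, and its hippocampal arrays were low, from 2.20 to 2.46.

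Ankrd1 encodes the cardiac ankyrin repeat protein, a nuclear cofactor and titin partner that is known to rise with stretch (chr19:36111965-36119844). In skeletal muscle it stood at 4.06, 3.11 and 4.35 in transgenic arrays, against 2.11, 2.83 and 4.37 in wild type arrays. These were the widest groups among the 10 genes, with an SD of 0.65 in transgenic and 1.15 in wild type muscle, and the difference of 0.74 ± 0.41 did not pass (adjusted p = 0.365). In heart Ankrd1 was at 10.08, 10.31 and 10.21 in transgenic and 9.77, 9.84 and 9.99 in wild type arrays. All transgenic heart arrays were higher, but the difference of 0.33 ± 0.41 carries the error shared with the muscle groups and did not pass (adjusted p = 0.799, and 0.286 to 0.854 over the alternatives).

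Ankrd2, the skeletal muscle member of the same family, known to rise in stretched and in slow fibres, lies on the same chromosome (chr19:42035917-42045111). It stood at 10.40, 10.56 and 10.51 in transgenic and 10.001, 10.166 and 10.624 in wild type skeletal muscle. Wild type array 3 was again above all other arrays, and the difference was 0.22 ± 0.16 (adjusted p = 0.512). Its heart arrays were low, at 2.48, 2.38 and 2.35 in transgenic and 2.48, 2.28 and 2.41 in wild type.

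Wild type skeletal muscle array 3 was thus the highest of the 6 muscle arrays for Csrp3, Ankrd1 and Ankrd2. The slow fibre markers of this array averaged 8.26 and its fast markers 11.23, against slow means of 8.09 and 8.25 and fast means of 11.30 and 11.34 in the other wild type arrays. Without it, Csrp3 differed by 0.44 (adjusted p = 0.0110) and Ankrd1 by 1.37 (adjusted p = 0.00735), both higher in transgenic muscle, while Ankrd2 differed by 0.40 (adjusted p = 0.138). The count of genes that passed in skeletal muscle was then 3, Fhl2 with Csrp3 and Ankrd1, in place of 1. When any 1 array was left out, Csrp3 ran from −0.09 to 0.44 (adjusted p = 0.0110 to 0.966). Ankrd1 ran from 0.25 to 1.37 in the same way (adjusted p = 0.00735 to 0.811). Nothing in the labels sets wild type array 3 apart. Its adipocyte markers averaged 4.97, against 5.77 and 5.63 in the other wild type arrays, and its smooth muscle markers 6.25, against 6.04 and 5.87. The part of these markers in the Csrp3 and Ankrd1 values was not tested.

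**Figure D2:**
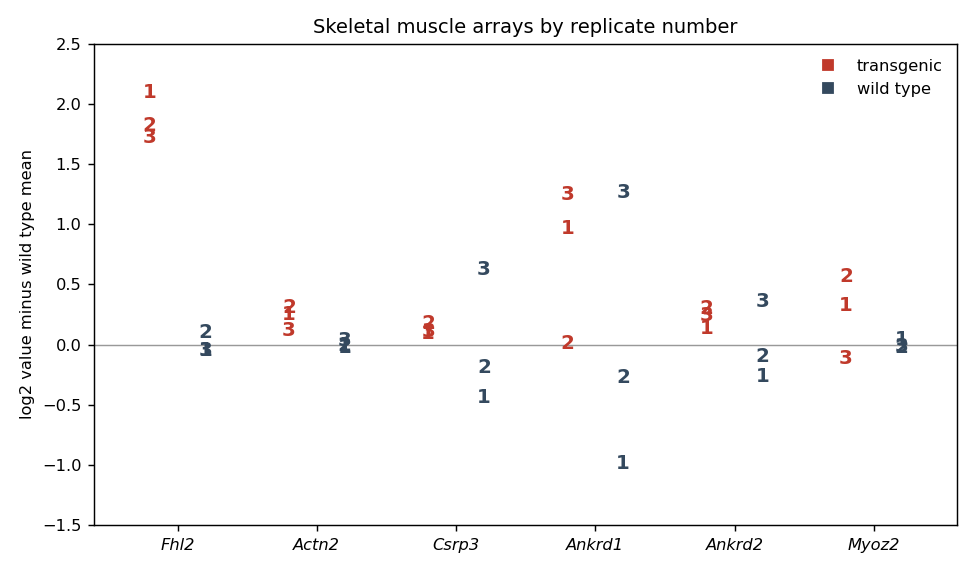
Skeletal muscle values of 6 of the genes as log2 value minus the wild type mean (vertical axis), with each array drawn as its replicate number, transgenic left of wild type for each gene. Wild type array 3 stands at or above the transgenic arrays for Csrp3, Ankrd1 and Ankrd2, and the transgenic arrays of Fhl2 all lie above the arrays of every other gene shown.

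Groups without overlap numbered 4 of 10 genes in skeletal muscle (Actn2, Myoz1 and Fhl2 higher, Myot lower), beside 21.9% of all probe sets. They numbered 3 of 10 in heart (Ankrd1 higher, Myot and Fhl2 lower), beside 18.5%, and 1 of 10 in hippocampus (Fhl1, higher), beside 13.3%. Apart from Fhl2, differences ran from −0.07 (Myot) to 0.74 (Ankrd1) in skeletal muscle, from −0.26 (Myot) to 0.33 (Ankrd1) in heart and from −0.21 (Myoz1) to 0.10 (Actn3) in hippocampus.

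**Figure D3:**
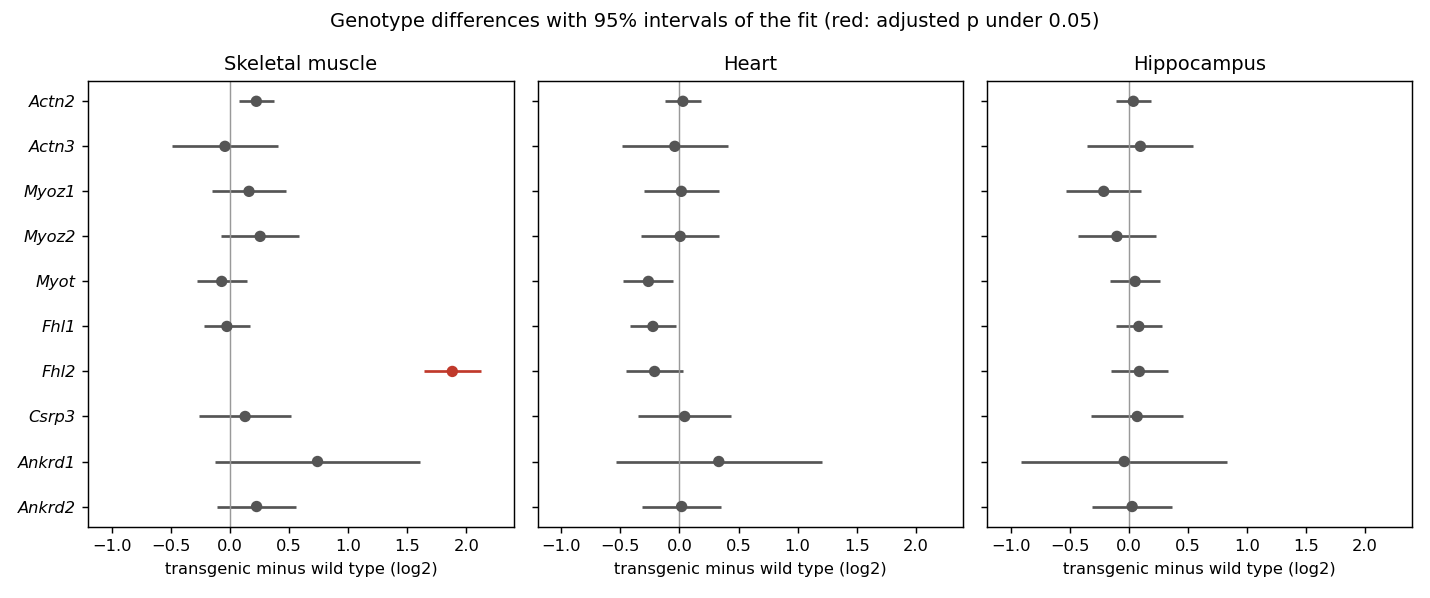
Differences of transgenic minus wild type (horizontal axis, log2) for the 10 genes in skeletal muscle, heart and hippocampus, with the 95% interval of the limma fit to all 18 arrays. Fhl2 in skeletal muscle, at 1.88, is the 1 value with an adjusted p under 0.05, and Ankrd1 has the widest intervals.

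Heart and skeletal muscle of wild type mice differed in all 10 genes, 5 higher and 5 lower in heart, beside 38.7% of all probe sets. Related genes fell on opposite sides. Among the alpha-actinins, Actn2 was slightly higher in heart (0.36 ± 0.07, adjusted p = 5.72e-04) and Actn3 was far lower (−9.58 ± 0.21). Of the myozenins, Myoz2 was 4.35-fold higher in heart and Myoz1 was far lower (−8.85). In the FHL family, Fhl2 was higher in heart (7.80 ± 0.11, adjusted p = 1.55e-16) and Fhl1 5.76-fold lower. The ankyrin repeat genes split in the same way, with Ankrd1 higher in heart (6.76 ± 0.41, adjusted p = 2.40e-09, and 6.27 to 7.40 when any 1 array was left out) and Ankrd2 lower (−7.87). No fold is given for Actn3, Myoz1, Fhl2, Ankrd1 and Ankrd2. Actn3, Myoz1 and Ankrd2 lay below the array median in every wild type heart array, Fhl2 lay just above it in wild type muscle, and Ankrd1 in wild type muscle spanned 2.11 to 4.37. Of the genes without a listed relative, Csrp3 was 5.61-fold higher and Myot 8.44-fold lower in heart.

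In these terms the Fhl2 difference between genotypes in skeletal muscle, 1.88, stands beside a difference of 7.80 between wild type heart and wild type skeletal muscle. By the deposited values, the order of the 3 tissues by mean level was the same in both genotypes for 9 of 10 genes, with Fhl1 as the exception. With each array's median subtracted it was again the same for 9 of 10, with Actn3 as the exception, whose heart and hippocampus values are all low. Fhl2 ran heart, hippocampus, skeletal muscle in both genotypes on either scale. As deposited, transgenic muscle at 4.69 ± 0.19 lay below transgenic hippocampus at 6.02 ± 0.18 (SD, n = 3). Above the array median, however, Fhl2 stood at 2.07 to 2.45 in transgenic muscle and 2.12 to 2.48 in transgenic hippocampus, ranges that overlapped. As deposited, Fhl1 means in heart and hippocampus were 8.33 ± 0.08 and 8.37 ± 0.03 in transgenic, against 8.56 ± 0.22 and 8.29 ± 0.04 in wild type mice (SD). Above the array median, Fhl1 was at 5.61 to 5.79 in transgenic heart and 4.64 to 4.73 in transgenic hippocampus, against 5.73 to 6.15 in wild type heart and 4.54 to 4.61 in wild type hippocampus, so heart was higher in both genotypes.

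Hippocampus, as a tissue without sarcomeres, held 9 of 10 genes below wild type skeletal muscle and 1, Fhl2, above it, all 10 past the threshold beside 78.2% of all probe sets. Relative to heart it held 7 of 10 lower and 3 higher, again all past the threshold, beside 76.8%. Arrays of hippocampus sit higher as a whole, by a median of 0.67 over all probe sets relative to skeletal muscle and 0.61 relative to heart. Fhl2 in hippocampus was higher by 3.13 ± 0.11 than in skeletal muscle and differed by −4.67 ± 0.11 from heart, and both directions held with arrays centred or quantile normalized. The sizes did not: Fhl2 was higher by 1.87 than in skeletal muscle and at −5.76 against heart after centring, and by 1.65 and at −5.56 with quantile normalization. In hippocampus Fhl1 was lower than in skeletal muscle (−2.80), as was Actn2 (−4.88). Fhl1 was lower than in heart by less (−0.27, adjusted p = 0.0139), a call lost without wild type heart array 3 (−0.16, adjusted p = 0.0874). Over the alternatives the Fhl1 difference from heart ran from −1.36 to −0.27. The 3 genes higher in hippocampus than in heart depended on the shift of the whole arrays. Actn3 (1.03) turned to −0.05 after centring, Myoz1 (0.58) to −0.51 and Ankrd2 (0.52) to −0.57, and with quantile normalization Myoz1 and Ankrd2 were at −0.17 and −0.29, while Actn3 stayed positive at 0.21 and missed the threshold (adjusted p = 0.386). Ankrd1 was lower in hippocampus than in skeletal muscle (−0.97, adjusted p = 0.0408), a call that was lost without wild type skeletal muscle array 3 (−0.34, adjusted p = 0.276), without any 1 wild type hippocampus array (adjusted p up to 0.0951) and with only the arrays of these tissues (adjusted p = 0.0828).

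For each of the 10 genes, the genes with the highest Pearson correlation over the 18 arrays are named as a description, since arrays of a tissue share that tissue's whole profile. Actn2 was most like Cox8b and Ckmt2 (r = 0.999 for both), Actn3 like Tnnc2 and Slc16a3, and Myoz1 like Tnnt3 and Myh4 (r = 0.998 to 0.999). Myoz2 paired with Acadm and Hadh, Myot with Klhl41 and Pgam2, and Csrp3 with Acaa2 and Gpihbp1. Ankrd1 paired with Pla2g5 and Acss1, Ankrd2 with Myh4 and Mylpf, and Fhl1 with Ptp4a2 and Tnni2. Fhl2 had the lowest such values, 0.989 with Grb14 and 0.988 with Ndufb10. Over the 6 skeletal muscle arrays alone, which differ by genotype, Fhl2 was most like Hddc2 (r = 0.998), itself higher in transgenic muscle by 0.77 (adjusted p = 1.88e-05), and Pdcd6ip (r = 0.996), higher by 0.35 (adjusted p = 0.00451).

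Among 24 other Z-disc scaffold and partner genes, of which 22 were measured, 4 rose and 2 fell in transgenic skeletal muscle, and 3 rose and 3 fell in transgenic heart. Of all probe sets 8.15% passed in skeletal muscle (3.86% higher, 4.3% lower) and 3.19% in heart (1.57% higher, 1.62% lower). The list medians were 0.05 in skeletal muscle and −0.11 in heart, beside 0.02 and 0.00 over all probe sets. Tcap, which encodes the titin cap telethonin, rose in both tissues. It stood at 9.56, 9.84 and 9.67 in transgenic and 8.81, 8.77 and 8.77 in wild type skeletal muscle (0.91 ± 0.14, adjusted p = 5.50e-04), and at 9.38, 9.61 and 9.46 in transgenic and 8.17, 7.68 and 8.30 in wild type heart (1.43 ± 0.14, adjusted p = 5.60e-05). All transgenic arrays lay above all wild type arrays in each tissue. Cfl2, the muscle cofilin, also rose in both (0.29 and 0.38), and the PDZ and LIM protein gene Pdlim5 fell in both (−0.35 in each). In skeletal muscle Palld (0.52), Mypn (0.38) and Pdlim7 (−0.63) also passed, and in heart Capza2 (0.34), Flnc (−0.61) and Actn1 (−0.34), whose other probe set stood at 0.17. The muscle count of 6 became 3 without wild type muscle array 2 or 3. The heart count of 6 became 2 when wild type array 1, transgenic array 2 or transgenic array 3 was left out, and 3 when wild type array 2 was.

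Of 10 further LIM domain genes, 8 measured, 2 rose in transgenic skeletal muscle and 0 passed in heart by limma, where 4 had an unadjusted p under 0.05, 2 of them higher. The counts that passed stand beside 3.86% of all probe sets higher in skeletal muscle and 3.19% passing in heart. At an unadjusted limma p under 0.05 in heart, all probe sets numbered 5320 of 35382. The list medians were 0.17 in skeletal muscle and 0.03 in heart, against 0.02 and 0.00 over all probe sets. Csrp1, a relative of Csrp3 known from smooth muscle, stood at 8.00, 7.99 and 8.05 in transgenic and 7.34, 7.27 and 7.48 in wild type skeletal muscle (0.65 ± 0.07, adjusted p = 2.94e-05). Lmcd1, a LIM protein that binds GATA factors, stood at 9.61, 9.44 and 9.59 in transgenic and 8.30, 8.51 and 9.19 in wild type skeletal muscle (0.88 ± 0.17, adjusted p = 0.00449). Neither overlapped between genotypes, and wild type array 3 was again the highest wild type array.

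Of 21 stretch sensing and stretch response genes, 18 measured, 6 fell and 0 rose past the threshold in transgenic skeletal muscle, and 4 fell and 0 rose in transgenic heart, with medians of −0.13 and −0.20. All probe sets that fell made up 4.3% in skeletal muscle and 1.62% in heart, and the medians over all probe sets were 0.02 and 0.00. Piezo1, a stretch-gated cation channel, stood at 6.21, 6.08 and 5.98 in transgenic and 7.45, 7.70 and 7.34 in wild type skeletal muscle (−1.40 ± 0.11, adjusted p = 1.79e-06). Its transgenic arrays all lay below every wild type array, and all 3 of its probe sets passed there. Piezo1 is also known from endothelium, whose markers were lower in transgenic muscle as given above, and their part in it was not tested. Trim54 (−0.66), Tead4 (−0.55), Obsl1 (−0.50), Xirp2 (−0.45) and Ccn1 (−0.71) fell with it in skeletal muscle. Obsl1 (−0.85), Ccn1 (−1.05), Acta1 (−1.18) and Tead1 (−0.32) fell in heart, where endothelial markers averaged 7.10 to 7.39 in transgenic and 7.68 to 7.76 in wild type arrays with 2 of 5 passing (Tek and Cldn5). Atrial markers in heart averaged 6.50 to 7.71 in transgenic and 6.03 to 7.02 in wild type arrays. Of 6 such markers 2 passed, both higher (Nppa and Kcnj3). Nppa, which is outside the stretch list, rose by 1.36 (limma adjusted p = 1.87e-04), so the single direction of the heart calls describes the listed genes only. Among 7 measured heart muscle markers, Nppa passed higher and Ryr2 lower (−0.38, adjusted p = 0.00971). Of 7 slow fibre markers 1 passed, Myh7, lower at −0.80 (adjusted p = 0.0261). The part of the endothelial and these muscle markers in the heart calls was not tested.

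In hippocampus limma gave 0 calls in each list, with an unadjusted p under 0.05 for 2 Z-disc, 0 LIM and 1 stretch gene. Of all 35382 probe sets, 1784 had such a p in hippocampus and 0 passed. With only the arrays of the tissue in the fit, 5 of 14 named calls in skeletal muscle passed (Tcap, Pdlim7, Palld, Csrp1 and Piezo1) and 0 of 10 in heart, where the adjusted p of Tcap was 0.0575 and the highest was 0.290. Fhl2 still passed in skeletal muscle under that setting (adjusted p = 0.00340).

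**Figure D4:**
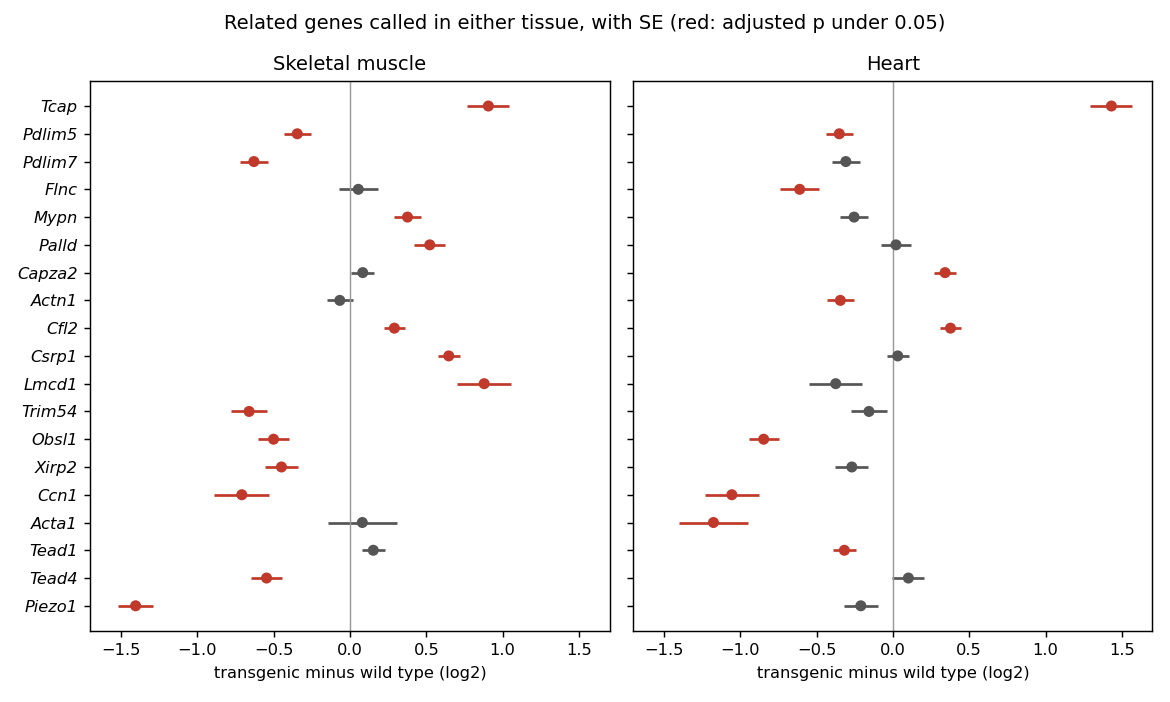
Differences of transgenic minus wild type (horizontal axis, log2, bars are SE) in skeletal muscle and heart for the related genes named in the text. Tcap and Cfl2 lie right of 0 and Pdlim5, Obsl1 and Ccn1 left of 0 with an adjusted p under 0.05 in both tissues, and Piezo1 has the lowest value in skeletal muscle, −1.40.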

How the data were processed

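The deposited log2 values, 1 per probe set and array, come from RMA, which the authors ran in R 2.10.0 as the submitters' processing notes record. Not given in the sources used here: the chip definition, filters, scan dates, and whether RMA saw all 18 arrays at once. Genes were named from the platform annotation and matched to RefSeq by Entrez ID (10 of 10).

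A limma model (3.58.1, R 4.3.3) of 6 group means was fitted to all 35382 probe sets. It had 12 residual and 2.67 prior degrees of freedom, so an SE reflects the spread in all tissues. Tests were two-sided. The number of arrays limits the precision. The code was tested on simulated data. Figures were drawn with matplotlib 3.10.9.

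The genes, lists and markers were chosen with earlier results of these data known. All 10 genes are named, with up to 6 called list genes by smallest unadjusted p for each list and tissue, and the 2 genes most correlated with each. A list gene with several probe sets was read from the brightest on average. Replicate numbers were not taken as pairs: in 9 same-numbered pairs of a tissue, deviations from group means correlated at −0.03 to 0.04. The labels do not say whether arrays of different tissues with the same number come from the same animal. The fit treated arrays of different tissues as independent. Alternatives covered the arrays in the fit, replicate blocks, scaling, dim probe sets, variance model, array weights, thresholds and each array left out. For list genes they were added after seeing the data. An uncalled value that moved within 1 SD of the fit counts as unmoved.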

Additional observations from a re-analysis of the deposited data

Results flagged for a closer look

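The genotype difference of 7 genes was not the same in heart and in skeletal muscle by the interaction term of the limma fit. They were 1 of the 10 genes, 1 of 22 measured Z-disc list genes, 2 of 8 LIM list genes and others of 18 stretch list genes. In the stretch list 2 passed in the positive and 1 in the negative direction. Of all probe sets 2.55% passed. Values are the difference in heart minus the difference in skeletal muscle, on the log2 scale. Fhl2 stood at −2.09 (adjusted p = 1.01e-05), with 1.88 in skeletal muscle and −0.21 in heart, and it passed under every alternative tried (adjusted p up to 0.00239). Csrp1 stood at −0.62 (adjusted p = 0.00350) and Piezo1 at 1.19 (adjusted p = 7.81e-04), with 0.65 and −1.40 in skeletal muscle and, short of the threshold, 0.03 and −0.21 in heart. Lmcd1 stood at −1.25 (adjusted p = 0.0127) and Mypn at −0.63 (adjusted p = 0.0148). Lmcd1 missed the threshold with only the arrays of these tissues (adjusted p = 0.0683), and both missed it with the replicate block (0.0530 for Lmcd1 and 0.0553 for Mypn). Tead1 at −0.47 (adjusted p = 0.0293) and Tead4 at 0.65 (adjusted p = 0.0295) missed it under several alternatives, for example with only these arrays (0.114 for Tead1 and 0.104 for Tead4). Tead1 lost the call without any 1 of several arrays, among them wild type skeletal muscle array 3 (−0.41, adjusted p = 0.0656). Tead4 also lost it without any 1 of several arrays. Among them were each wild type heart array (adjusted p = 0.0572 to 0.0606) and wild type skeletal muscle array 2 (0.59, adjusted p = 0.0747).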

How the results depend on the processing

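Of the values of the 10 genes under alternatives other than leaving out arrays, 918 counted as unmoved, 4 lost a call, 3 gained one and 5 called values reversed. The 918 include uncalled values that changed sign within 1 SD of the fit, such as Csrp3 in heart (0.04 as fitted, −0.003 at its lowest). All 5 reversals of called values were in wild type hippocampus minus wild type heart: Actn3 at −0.054, Myoz1 at −0.51 and Ankrd2 at −0.57 with each array centred on its median, and Myoz1 at −0.17 and Ankrd2 at −0.29 with quantile normalization. These settings take out the shift of the whole hippocampal arrays. The count of the 10 genes called in skeletal muscle, 1, was 2 without the dim probe sets, 2 with an intensity trend and robust prior and 2 at an adjusted p under 0.1, each time with Actn2 added. Without 1 array it was 1 to 3 in skeletal muscle, 0 to 1 in heart and 1 to 3 for their mean. With the replicate number as a block within tissue it stayed at 1 in skeletal muscle and 0 in heart.

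The lists of related genes moved more. The Z-disc list in heart, 6 calls, had 0 with only the tissue's arrays, 3 with skeletal muscle and heart arrays, 1 with the replicate block, 2 at an adjusted p under 0.01, and 2 to 6 without 1 array. In skeletal muscle, 6 calls, it had 3 with only the tissue's arrays, 3 at 0.01, and 3 to 6 without 1 array. The LIM list in heart, 0 calls, had 1 without the dim probe sets, with the trend or at 0.1, and 0 to 1 without 1 array. In skeletal muscle, 2 calls, it had 1 with only the tissue's arrays. The stretch list had 0 of 4 in heart and 1 of 6 in skeletal muscle with only the tissue's arrays, and 2 in heart at 0.01. The cause was not tested, beyond the fewer residual degrees of freedom that fewer arrays leave. With 3 arrays in each group, a difference within the spread of the arrays was not detectable.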
